A study of Homo sapiens with 6 samples.

Results

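Iron handling genes were followed in HepG2, a human hepatocellular carcinoma cell line, after knockdown of TCTP, the translationally controlled tumour protein encoded by TPT1. The set was given by name, 9 gene symbols of iron uptake, storage, export and sensing. All 9 were found among the 26389 genes of the deposited read counts and among the 26184 genes with deposited FPKM. They are TF, TFRC, HFE, SLC11A2, FTL, FTH1, SLC40A1, ACO1 and IREB2.

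A cell takes up iron mainly as the complex of transferrin with its surface receptor, and after release in the endosome the metal is carried into the cytosol. What is not used at once is kept inside ferritin, a shell built of heavy and light subunits, or leaves the cell through ferroportin. The cytosolic iron regulatory proteins bind a short hairpin, the iron-responsive element, when iron is scarce. Bound upstream of a coding sequence it blocks translation, and bound in the tail of the transferrin receptor message it protects that message from decay. Liver cells make the transferrin of the blood, store much of the body's iron and secrete hepcidin, the hormone that closes ferroportin.

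The hairpin is the sequence feature that joins the storage, uptake and export genes, so its letters are shown for them. GENCODE release 29 transcripts (GRCh38) were searched on the transcript strand for a C, 5 bases, the loop CAGTGN, and 5 bases able to pair with the first 5, with G-T pairs allowed. Capitals mark the loop.
FTH1, 5′ UTR, chr11:61967580-61967596, minus strand: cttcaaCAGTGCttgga
FTL, 5′ UTR, chr19:48965341-48965357, plus strand: cttcaaCAGTGTttgga
SLC40A1, 5′ UTR, chr2:189580667-189580683, minus strand: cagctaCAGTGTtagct
TFRC, 3′ UTR, chr3:196050985-196051001, minus strand: cggaagCAGTGCcttcc
TFRC, 3′ UTR, chr3:196050581-196050597, minus strand: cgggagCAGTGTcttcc
TFRC, 3′ UTR, chr3:196050516-196050532, minus strand: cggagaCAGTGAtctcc
TFRC, 3′ UTR, chr3:196050469-196050485, minus strand: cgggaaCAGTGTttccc

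FTH1 and FTL have the same stem letters. TFRC alone had 4 such positions, while FTH1, FTL and SLC40A1 had 1 each, the one of SLC40A1 in 1 of its 5 protein-coding transcripts. TF also held a match, in the 3′ UTR of 1 of its 3 protein-coding transcripts. These letters were not found in SLC11A2, HFE, ACO1 or IREB2, which says only that this exact pattern is not in their protein-coding transcripts. Of 19684 genes with a protein-coding transcript, 1.48% held a match, a share that counts transcripts of every length. A match is a description of letters and not evidence of binding.

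The samples were 3 libraries labelled shCtrl, from cells given a plasmid for a control short hairpin RNA, and 3 labelled shTCTP, from cells given one against TCTP. All cells were the same line in the same serum-containing medium, a lipid reagent delivered both plasmids, and the labels name no iron treatment. A harvest at 48 h is given for quantitative PCR and none for sequencing. Each library was a poly(A)-selected bulk RNA sample, so fewer expressing cells and less RNA per cell cannot be told apart. Separate cultures are not mentioned in the labels, so the p-values reflect only how far these samples spread, which may be technical.

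Libraries held 25427614 to 30486409 reads assigned to genes, with shTCTP library 3 the shallowest. That library also stood apart: its correlation with the other 5 averaged 0.977, against 0.986 to 0.987 elsewhere. Long genes were relatively high in it, the log2 level rising by 0.13 for each doubling of gene length, against -0.07 to 0.04 in the other 5. TPT1, the targeted gene, was measured at 2575, 2249 and 2290 CPM (counts scaled to library size) in shCtrl and 2032, 1807 and 1559 CPM in shTCTP libraries. That is 75.9% of control (log2 fold change -0.40, 95% confidence interval -0.76 to -0.03, edgeR adjusted p = 0.396), and the lower TPT1 message in the shTCTP libraries did not pass the threshold. All 10 hepatocyte markers were present, with summed levels of 19005 to 21933 FPKM in control and 16172 to 21296 FPKM in knockdown libraries. Of the leukocyte markers PTPRC, CD163 and MARCO are not listed in the tables, and the erythroid marker ALAS2 is not either. The summed erythroid markers reached 3.12 to 3.64 FPKM in control and 2.68 to 7.48 FPKM in knockdown libraries, leukocyte markers 3.30 to 3.69 and 2.84 to 3.31 FPKM, and stellate and fibroblast markers 25.9 to 27.6 and 28.6 to 37.9 FPKM. ITGAM, a leukocyte marker, passed the threshold upward at 12 to 75 reads per library (log2 fold change 1.54, edgeR adjusted p = 0.0375). CD14, the other leukocyte marker tested, had 127 to 211 reads and was lower in every knockdown library than in any control. Its log2 fold change was -0.39, which did not pass (edgeR adjusted p = 0.47). The part of these markers in the results was not tested.

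Levels of different genes were compared as FPKM, which is per length. The ferritin light chain gene FTL was first of all genes by mean control FPKM, at 19537 ± 1876 (SD, n = 3), and FTH1, the heavy chain gene, stood at 2029 ± 208 (SD, n = 3). TF followed at 727 ± 80.5 FPKM (SD, n = 3). The other 6 lay far below, with TFRC the highest of them at 7.44 ± 1.48 FPKM (SD, n = 3). Next came ACO1 at 3.87, SLC11A2 at 2.98, SLC40A1 at 1.98, IREB2 at 0.79 and HFE at 0.76 FPKM, each a mean of 3 control libraries. In the control libraries the ranges of neighbours in this order overlapped only for IREB2 and HFE, and over all 6 libraries also for ACO1 and SLC11A2. FTL exceeded FTH1 9.63-fold, and TF, the lowest of the upper 3, exceeded TFRC 97.7-fold.

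**Figure D1:**
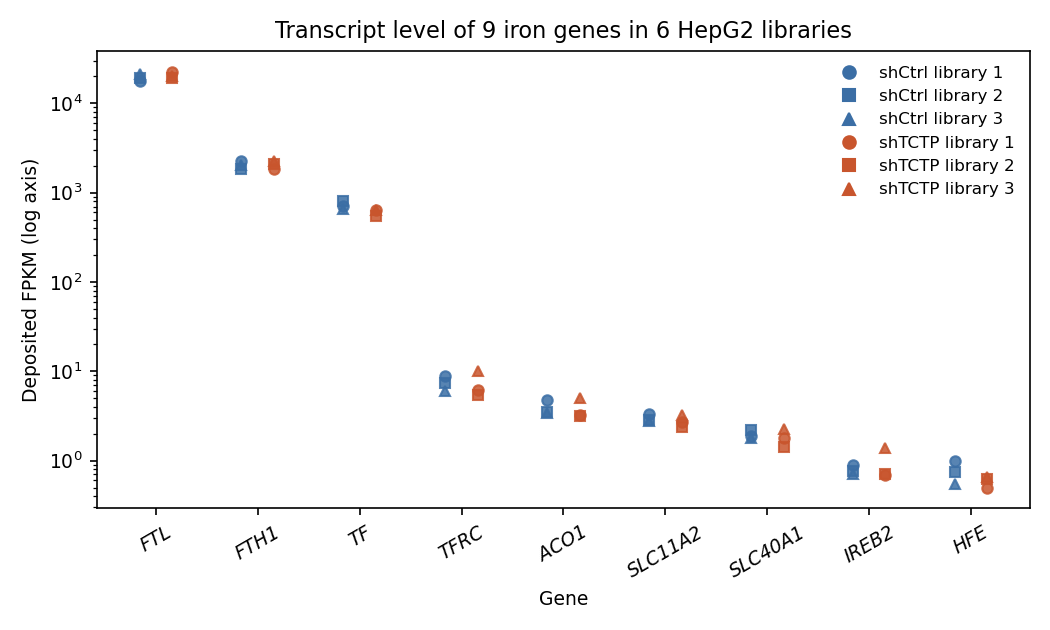
Deposited FPKM (log axis) of the 9 genes in each of the 6 libraries, ordered by mean control level, with blue for shCtrl, orange for shTCTP and the marker shape for the library number. FTL, FTH1 and TF form the upper group and the order of genes is similar in both groups of libraries.

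The comparison asked which of these messages differed between knockdown and control cells. None of them passed the threshold. Of 14197 genes tested together with the edgeR quasi-likelihood test, 1.41% had a Benjamini-Hochberg adjusted p under 0.05. All 9 iron genes were tested and 0 passed, with adjusted p from 0.454 to 0.988, and 0 had an unadjusted p under 0.05 in that fit, where 11.1% of all genes did. TF and HFE came nearest to it, with unadjusted edgeR p of 0.0511 and 0.0529. With a correction for gene length or GC content, or with no filter, HFE and TF both fell under 0.05. The share of all genes under 0.05 in those fits was not computed. With DESeq2 0 of the 9 passed, beside 2.06% of all genes, and with limma voom 0 passed, beside 1.16%. TF alone had an unadjusted p under 0.05 with either tool, as 10.1% of all genes did with DESeq2 and 11% with limma voom. Among the 9 log2 fold changes 8 were negative, with a median of -0.17, beside a median of -0.00227 and 50.4% negative over all genes tested. The precision sets what could be seen. Each 95% interval included 0 and lay within a 2-fold change in either direction, and for 6 of the 9 it lay within 1.5-fold.

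**Figure D2:**
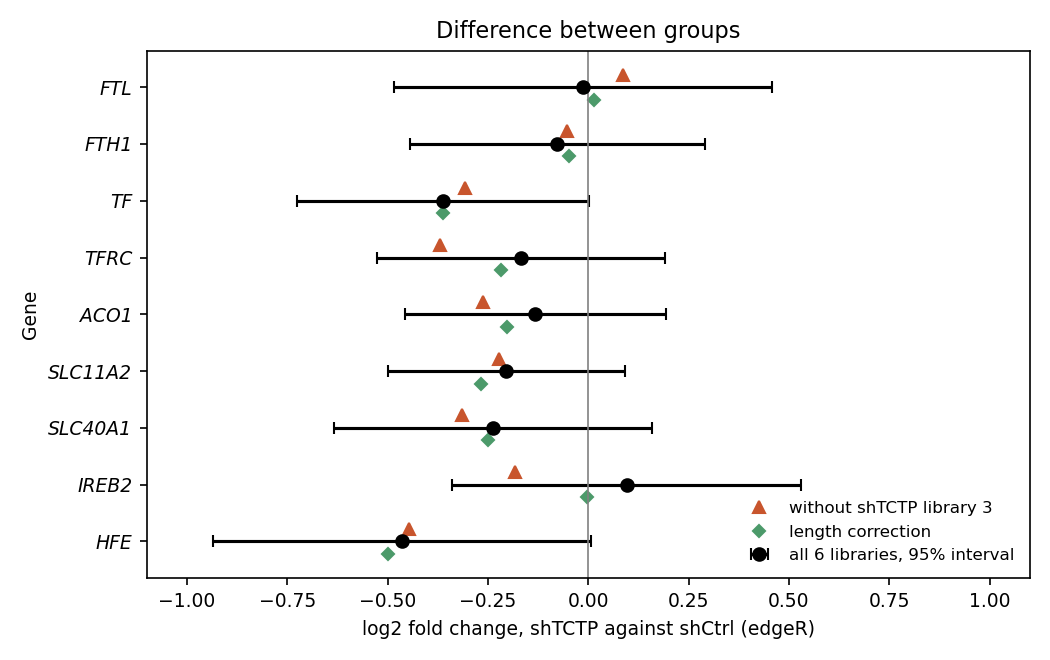
Log2 fold change (shTCTP against shCtrl, edgeR) of each gene with its 95% confidence interval from all 6 libraries (black), the estimate without shTCTP library 3 (orange triangles) and the estimate after a correction for gene length (green diamonds). All 9 black intervals cross 0, and TFRC, ACO1 and IREB2 move left without shTCTP library 3.

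TF (GRCh38 chr3:133745956-133796640, plus strand) encodes transferrin, the carrier of iron in the blood and a secreted product of hepatocytes. It gave 2173, 2635 and 2203 CPM (counts per library size, scaled by TMM factors) in control libraries 1 to 3 and 2051, 1704 and 1698 CPM in knockdown libraries 1 to 3. All knockdown values of TF were lower than all control values. Groups without overlap were found for 2 of these 9 genes, both lower in knockdown cells, beside 17.1% of tested genes in either direction and 7.3% lower. TF stood at 77.8% of control, a log2 change of -0.36 with an SE of 0.17 (95% confidence interval -0.73 to 0.0019), and did not pass (edgeR adjusted p = 0.454). The estimates of all 10 hepatocyte marker genes were negative too (median -0.28 on the log2 scale), and 0 of them passed the threshold. Their part in the TF value was not tested. The pseudogene TFP1 overlaps TF exons on the same strand and was counted in its own row with 5.20% to 5.94% as many reads, and with both rows summed the TF estimate was -0.37.

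TFRC (chr3:196027183-196082189, minus strand) encodes the transferrin receptor, whose message is the classic target of stabilisation in iron-poor cells and holds the 4 matches printed above. Control libraries 1 to 3 gave 48.9, 42.8 and 36.3 CPM and knockdown libraries 1 to 3 gave 35.4, 30.2 and 48.4 CPM. Knockdown libraries 1 and 2 were below every control library and knockdown library 3 was nearly as high as the highest. The log2 fold change was -0.17 (SE 0.17, 95% confidence interval -0.53 to 0.19, edgeR adjusted p = 0.781). Without shTCTP library 3 it was -0.37, and still did not pass over all genes (edgeR adjusted p = 0.307). In that fit TFRC was the 1 gene of the 9 with an unadjusted p under 0.05, where 11.5% of all tested genes had one. The estimate shrank to -0.0584 without shCtrl library 1 and to -0.0405 without shTCTP library 2, and was -0.27 without shCtrl library 3. On log2 FPKM with a pseudocount of 1 it was -0.066. Estimates on that scale were shifted upward, the median of all genes being 0.057 with 33.3% negative. With a pseudocount of 0.1 that median was 0.0908. This shift applies to each log2 FPKM estimate given below.

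HFE (chr6:26087281-26098343, plus strand) encodes a membrane protein that binds the transferrin receptor and takes part in sensing transferrin iron for hepcidin control. It was the least abundant of the 9 by control FPKM, with 85 to 165 reads per library. Control cells gave 5.41, 4.34 and 3.37 CPM, and knockdown cells 2.91, 3.46 and 3.14 CPM. All 3 knockdown libraries were low, and the lowest control library lay among them. With all libraries it stood at 72.5% of control (log2 fold change -0.46, SE 0.22, 95% confidence interval -0.94 to 0.0064, edgeR adjusted p = 0.457). After the correction for gene length the HFE groups no longer overlapped, at 3.64 to 5.11 CPM in control and 2.84 to 3.53 CPM in knockdown libraries, and the adjusted p was 0.277. Without shCtrl library 1 the HFE estimate was -0.28, and on log2 FPKM it was -0.14 with a pseudocount of 1 and -0.29 with 0.1. All HFE values, 0.50 to 0.98 FPKM, lay below the pseudocount of 1, which draws the estimate toward 0.

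SLC11A2 (chr12:50979401-51028566, minus strand) encodes DMT1, the transporter that moves ferrous iron out of the endosome. It stood at 24.6, 22.4 and 22.7 CPM in control and at 21.4, 18.1 and 21.0 CPM in knockdown libraries. The SLC11A2 groups did not overlap in CPM, the second such case among the 9. In FPKM they did overlap, with knockdown library 3 at 3.25 between the control values of 3.32 and 2.84. The log2 fold change was -0.20 (SE 0.14, 95% confidence interval -0.50 to 0.092, edgeR adjusted p = 0.638). On log2 FPKM with a pseudocount of 1, where the median of all genes was 0.057, it was -0.0728.

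The ferritin messages were the most abundant and neither passed the threshold. FTL (chr19:48965301-48966878, plus strand), the light chain gene, took up 1.63% to 2.08% of all reads in a library. It gave 16025, 18484 and 21460 CPM in control and 21671, 17707 and 16095 CPM in knockdown libraries. The FTL ranges nearly coincided, and its log2 fold change was -0.0129 (SE 0.22, 95% confidence interval -0.48 to 0.46, edgeR adjusted p = 0.988). The sign turned under 3 of the other settings and with some libraries left out.

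FTH1 (chr11:61959718-61967660, minus strand), whose heavy chain oxidises iron as it enters the shell, gave 3716, 3222 and 3711 CPM in control and 3232, 3570 and 3290 CPM in knockdown libraries. All 3 knockdown values lay inside the control range. Its log2 fold change was -0.0775 (SE 0.17, 95% confidence interval -0.45 to 0.29, edgeR adjusted p = 0.918). On the FPKM scale, where the median of all genes was positive too, the sign turned. With 1 library left out it ranged from -0.14 (shCtrl library 2) to -0.0444 (shCtrl library 1). FTH1 and FTL have many processed copies in the genome, to which reads can also be assigned. The 16 pseudogene rows named after them held 818 reads in all over the 6 libraries, and adding them to their parent genes gave -0.0128 for FTL and -0.0767 for FTH1. FTH1P10 held 424 of those reads, 199 of them in shTCTP library 3. FTH1 also shares exon positions with BEST1 on the opposite strand, a gene with 33 to 132 reads per library.

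SLC40A1 (chr2:189560579-189583758, minus strand) encodes ferroportin, the iron exporter. It stood at 6.76, 8.32 and 7.07 CPM in control and at 6.68, 5.11 and 6.99 CPM in knockdown libraries. Knockdown library 2 was the lowest, and the other two lay close to the lower end of the control range. The log2 fold change was -0.24 (SE 0.19, 95% confidence interval -0.63 to 0.16, edgeR adjusted p = 0.699). It shrank to -0.14 without shCtrl library 2 and to -0.12 without shTCTP library 2, and stood at -0.0864 on log2 FPKM with a pseudocount of 1.

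ACO1 (chr9:32384603-32454769, plus strand) and IREB2 (chr15:78437431-78501456, plus strand) encode the iron regulatory proteins IRP1 and IRP2, of which the first doubles as cytosolic aconitase when it holds an iron-sulphur cluster and the second is degraded when iron is plentiful. ACO1 gave 36.5, 28.7 and 29.3 CPM in control and 26.9, 25.3 and 34.2 CPM in knockdown libraries. Its log2 fold change was -0.13 (SE 0.15, 95% confidence interval -0.46 to 0.19, edgeR adjusted p = 0.817), and -0.26 without shTCTP library 3. Without shCtrl library 1 or shTCTP library 2 the ACO1 estimate shrank to -0.0133 or -0.0599, and on log2 FPKM with a pseudocount of 1 it was -0.0218. IREB2 gave 8.76, 7.98 and 7.54 CPM in control and 7.09, 7.06 and 11.8 CPM in knockdown libraries. For both genes knockdown libraries 1 and 2 were below all controls and knockdown library 3 was high, for IREB2 the highest of the 6. IREB2 was the 1 gene of the 9 with a positive estimate, at 0.0955 (SE 0.21, 95% confidence interval -0.34 to 0.53, edgeR adjusted p = 0.912). That sign rested on shTCTP library 3, without which the estimate was -0.18 and both remaining knockdown libraries were below all controls.

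**Figure D3:**
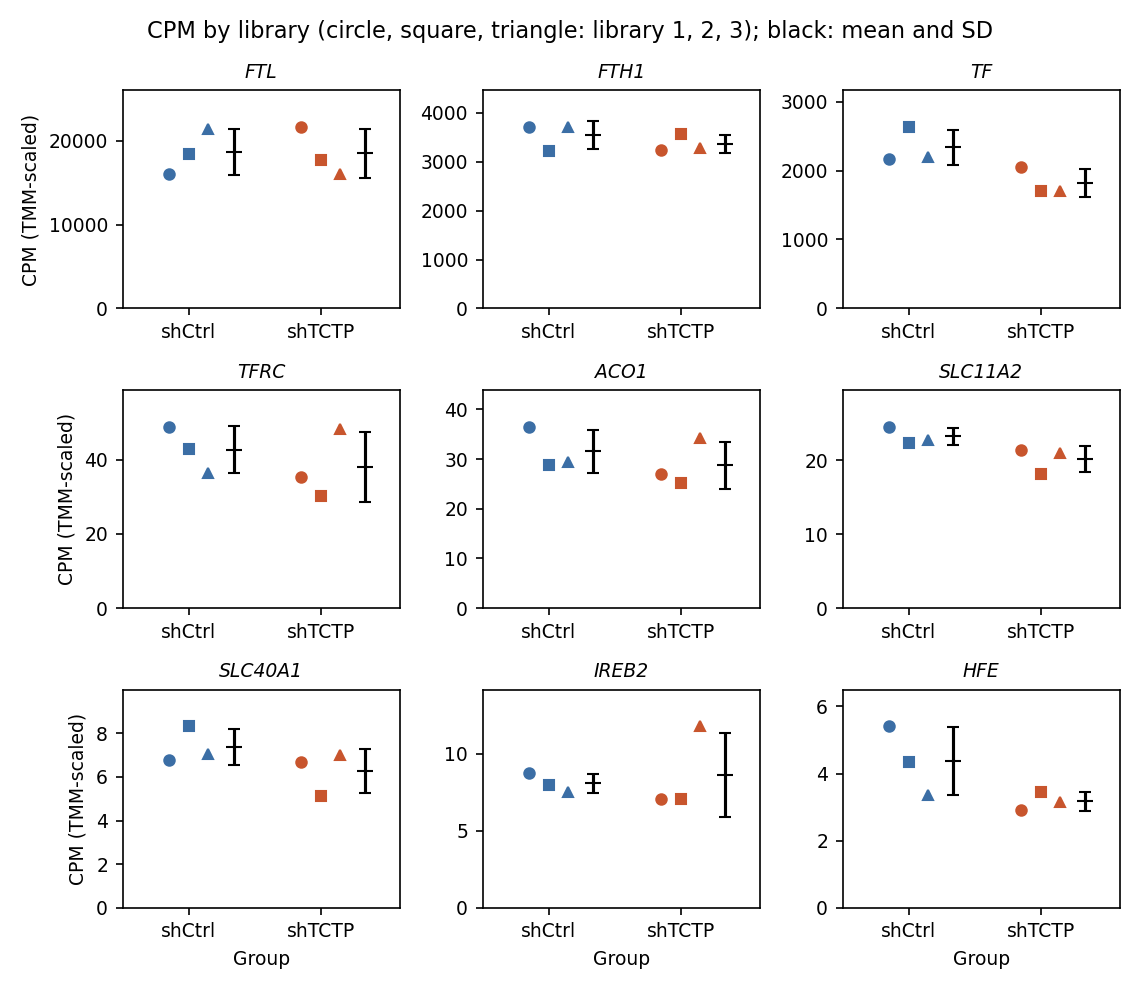
CPM of each gene in each library (vertical axes start at 0), with circles, squares and triangles for libraries 1, 2 and 3 and the mean ± SD of each group in black. TFRC, ACO1 and IREB2 share a raised shTCTP library 3, while FTL, FTH1, TF, SLC11A2 and HFE do not.

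TFRC, ACO1 and IREB2 were raised in shTCTP library 3, and they are also long, with gene lengths of 5.55, 7.88 and 9.89 kb derived from the counts and FPKM, against 0.916 kb for FTL and 1.69 kb for FTH1. A smooth curve of level against gene length in that library stood at 0.14, 0.19 and 0.21 on the log2 scale for TFRC, ACO1 and IREB2 and at -0.23 and -0.14 for FTL and FTH1. With those curves removed from all libraries, IREB2 in shTCTP library 3 was still the highest at 10.2 CPM, against 7.20 to 8.49 CPM in the other 5, and the log2 fold change of IREB2 was -0.0023. SLC11A2, at 7.52 kb, had a curve of 0.18 there, and after its removal shTCTP library 3 was the lowest of the 6 for SLC11A2, at 18.4 CPM. Before the removal SLC11A2 and HFE (5.61 kb, curve of 0.14) were not raised there, both lying below all controls at 21.0 and 3.14 CPM. The part of length in these values was not tested beyond this correction. Without shTCTP library 3, 6 of the 9 genes (TF, TFRC, SLC40A1, SLC11A2, IREB2 and ACO1) had both remaining knockdown libraries below all controls. By the same rule 27.6% of tested genes were separated in either direction. FTL, FTH1 and HFE overlapped, so 6 of the 9 is also the count in either direction. The share of all genes separated downward was not computed. In the edgeR fit without that library 0 of the 9 passed, the lowest adjusted p being 0.307, and 2.38% of genes passed.

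Ratios within a library do not depend on its depth, and 3 were computed from FPKM. They can still carry its length trend, for which they were not corrected. In shTCTP library 3 the length curve stood at 0.14 for TFRC and -0.14 for FTH1 on the log2 scale. The ratio of TFRC to FTH1, receptor to storage message, was 0.00400, 0.00403 and 0.00297 in control and 0.00333, 0.00257 and 0.00447 in knockdown libraries. On the log2 scale the knockdown mean was lower by a difference of -0.11, within SDs of 0.25 (control) and 0.40 (knockdown, n = 3 each), and the difference was -0.31 without shTCTP library 3. The ratio of FTL to FTH1 was 7.94, 10.6 and 10.7 in control and 12.4, 9.14 and 9.01 in knockdown libraries, a log2 difference of 0.062. The ratio of TFRC to SLC40A1, uptake to export, ranged from 3.32 to 4.69 in control and from 3.44 to 4.47 in knockdown libraries, a log2 difference of 0.061. In all 3 ratios the groups overlapped.

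**Figure D4:**
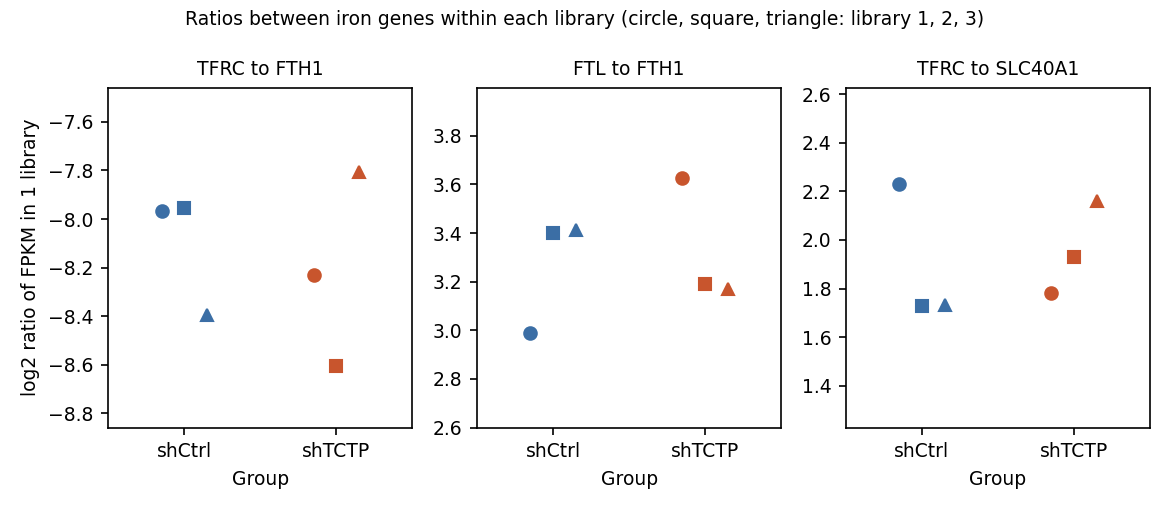
Log2 ratio of FPKM between pairs of iron genes within each library (each panel spans the same height, and circles, squares and triangles are libraries 1, 2 and 3). The groups overlap in each panel, with log2 differences of -0.11, 0.062 and 0.061 between their means.

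Beyond these 9 genes, 7 lists held other chosen genes of iron metabolism, without being a complete set. Of 93 distinct genes 87 were in the count table and 78 were tested. Of these 0 rose and 2 fell, where over all genes 1.26% rose and 0.148% fell. The 2 were HAMP and CP, and the median log2 fold change of the 78 was -0.0202, with 60.3% negative. In the edgeR fit 10 of the 78 had an unadjusted p under 0.05, beside 11.1% of all tested genes. For 14 of them the groups did not overlap, beside 17.1%.

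HAMP encodes hepcidin, the hormone that brings about the loss of ferroportin from cells. It gave 89.2, 102 and 130 CPM in control and 81.4, 59.2 and 49.8 CPM in knockdown libraries, without overlap, and fell by 0.76 on the log2 scale (SE 0.18, edgeR adjusted p = 0.0440). CP encodes ceruloplasmin, the copper ferroxidase of plasma that oxidises iron as ferroportin releases it. It gave 30.5, 35.3 and 21.8 CPM in control and 19.6, 12.7 and 17.7 CPM in knockdown libraries, again without overlap, and fell by 0.81 on the log2 scale (SE 0.19, edgeR adjusted p = 0.0440). Both calls sat close to the threshold. HAMP missed it without any 1 control library or shTCTP library 2 (edgeR adjusted p up to 0.244), and CP missed it without control library 1 or 2 or shTCTP library 2 (up to 0.311). With limma voom 0 of the 78 passed, beside 1.16% of all genes, and 11 had an unadjusted p under 0.05, where 11% of all genes did. In that fit HAMP had an adjusted p of 0.0511 and CP one of 0.0637. With DESeq2 both passed, at adjusted p of 0.00762 and 0.00571. Hepatocytes secrete both products, and the part of the hepatocyte markers, all 10 with negative estimates, in these values was not tested.

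Among the 16 tested genes of hepcidin control, HAMP was the 1 that fell and 0 rose, 12 estimates being positive and 4 negative, with a median of 0.18. TFR2, the second transferrin receptor and a liver sensor, gave 21.4, 21.9 and 22.3 CPM in control and 13.8, 18.6 and 17.7 CPM in knockdown libraries, an estimate of -0.39 that did not pass (edgeR adjusted p = 0.311). TMPRSS6, a protease that restrains hepcidin, stood at -0.51 and did not pass (edgeR adjusted p = 0.31). BMP6, a ligand that raises hepcidin, had 6 to 21 reads per library and was higher in all 3 knockdown libraries, at 0.88 (SE 0.43, edgeR adjusted p = 0.47). These 3 genes were chosen after their values were seen. With HAMP they are the 4 of the 16 whose groups did not overlap, beside 17.1% of all tested genes. An unadjusted edgeR p under 0.05 was found for 5 of the 16, beside 11.1% of all tested genes. They were HAMP, TFR2 and TMPRSS6 and, with positive estimates, SMAD5 (0.42) and FURIN (0.35), which did not pass.

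Among the 11 tested genes of other carriers, reductases and ferroxidases 0 rose and 1, CP, fell, with a median of -0.19. An unadjusted edgeR p under 0.05 was found for 3 of the 11, beside 11.1% of all tested genes. The groups did not overlap for 4, beside 17.1%. TFR2 is counted in this list and in that of hepcidin control.

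In the 5 remaining lists 0 genes passed. Of 7 iron chaperone and ferritin turnover genes NCOA4, the receptor that delivers ferritin for breakdown, had the smallest p, at -0.38 (SE 0.14, edgeR adjusted p = 0.297), and HERC2, an E3 ligase for NCOA4, stood at 0.18 (edgeR adjusted p = 0.775). The list median was 0.0882. All 7 genes of iron regulatory protein turnover had negative estimates, with a median of -0.079, MMS19 at -0.23 (edgeR adjusted p = 0.588) and SKP1 at -0.12 (0.811). Of 18 genes of mitochondrial iron and iron-sulphur cluster assembly 14 had negative estimates, with a median of -0.078. The reductase gene FDXR stood at -0.23 (edgeR adjusted p = 0.577).

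Of 16 genes of haem synthesis and breakdown 11 had negative estimates, with a median of -0.0903. ABCG2, a membrane exporter that can carry porphyrins, stood at -0.41 (edgeR adjusted p = 0.441) and PPOX, an enzyme of haem synthesis, at -0.32 (edgeR adjusted p = 0.504). Of 4 other messages with a known iron-responsive element EPAS1, which encodes HIF-2 alpha, stood at 0.22 (edgeR adjusted p = 0.679) and CDC14A at -0.0509, with a median of -0.0111. In these 5 lists 0, 1, 1, 1 and 0 genes had an unadjusted p under 0.05 (iron regulatory protein turnover, chaperones, mitochondrial, haem, and hairpin messages in that order), beside 11.1% of all tested genes.

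**Figure D5:**
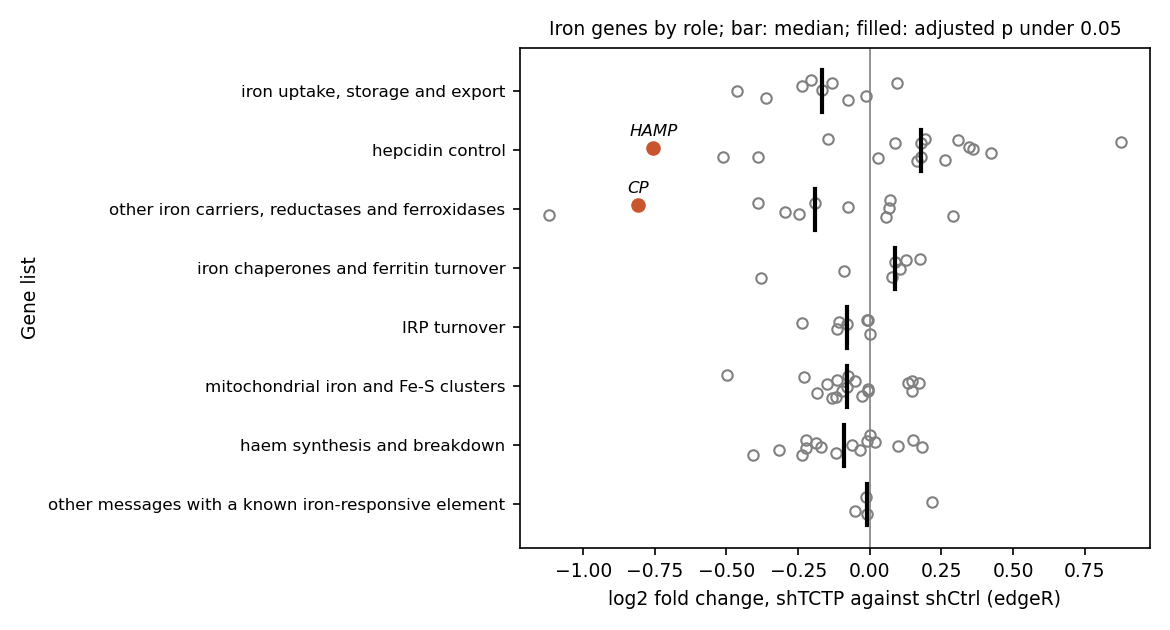
Log2 fold change (shTCTP against shCtrl, edgeR) of each tested gene in 8 lists of iron metabolism, with the median of each list as a black bar and genes past the threshold filled. HAMP and CP, at -0.76 and -0.81, are the filled points, and the top row holds the 9 iron uptake, storage and export genes.

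The genes whose pattern over the 6 libraries was most like that of TFRC, FTH1 or FTL were sought among 7037 genes with a mean of at least 10 CPM, by the root mean square difference of centred log2 CPM. Nearest to TFRC were ARFGAP3, SERINC5 and TRIP12, with differences of 0.0378, 0.0453 and 0.0496. Nearest to FTH1 were PDLIM1 (0.0284), IRX3 (0.0351) and CLU (0.0393), and nearest to FTL were SLC25A26 (0.0464), COMMD7 (0.0477) and THAP11 (0.0527). Of these 9 neighbours 0 passed the threshold, with adjusted p from 0.801 to 0.98, and 0 were in any of the iron lists. With 6 libraries and 7037 genes, a close neighbour is a description of these values only.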

How the data were processed

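Gene-level read counts and FPKM values (scaled for gene length and library size) were deposited by the authors for 6 libraries. TopHat2, bcl2fastq, edgeR and GRCh38 are named without versions, per the submitters' processing notes. The strand setting, annotation and tool behind the counts were not given in the sources used here. Counts were tested with edgeR 4.0.16 (R 4.3.3), using filterByExpr, TMM factors and a robust quasi-likelihood fit with no term but group. Adjustment was by Benjamini-Hochberg over all tested genes at a threshold of 0.05. The procedure was also run on simulated counts, which held no length trend and no outlying library. That run does not speak to either of these. Standard errors were computed as the size of the log2 fold change over the root of F. Libraries within a group differed beyond sampling noise (a chi-square of at least 15.1 per degree of freedom). The 9 genes, the lists and the tests were chosen with earlier results of these data known. From each list the text names the genes that passed or, where 0 passed, the 2 of smallest p, and others are marked as chosen on their values. A gene selected this way is not reported here. Gene lengths came from counts and FPKM (at least 5 reads and 0.1 FPKM), and coordinates and transcripts from GENCODE 29, which held 98.0% of the gene identifiers. Alternatives used limma 3.58.1, DESeq2 1.42.0, other normalizations and filters, length and GC curves (loess, span 0.3) and libraries left out. Summing TF with TFP1 was added after seeing the data.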

Additional observations from a re-analysis of the deposited data

How the results depend on the processing

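With the replicate number as a block 130 genes passed in place of 200, and 0 of the 9 iron genes passed. HAMP and CP had edgeR adjusted p of 0.0658 and 0.0622 there, so 0 of the other listed iron metabolism genes passed. Libraries with the same number did not deviate together (correlations of -0.23, 0.001 and -0.20, and 0 of 6 libraries correlated best with their own number). Deviations from the mean of 3 libraries sum to 0, so this cannot settle whether samples were paired. The labels do not say so, and the numbers were not taken as pairs. With no filter 317 genes passed. Without shCtrl library 1, 2 or 3 the number was 90, 79 or 101, and without shTCTP library 1, 2 or 3 it was 177, 89 or 343. In those fits 0 of the 9 iron genes and 0 to 2 of the other iron genes passed. Those other genes numbered 1 with at least 1 CPM in 3 libraries (CP), and 0 with limma voom and with limma on log2 FPKM at either pseudocount. On the FPKM scale, where the median of all genes was 0.0908 at a pseudocount of 0.1, FTL stood at 0.091 and FTH1 at 0.0291. With the length correction FTL stood at 0.0135 and IREB2 at -0.0023. With 1 library left out FTL ranged from -0.14 to 0.0973, IREB2 from -0.18 to 0.22 and CDC14A from -0.46 to 0.25. The other 6 iron genes kept a negative estimate under every alternative run, and 0 of the 9 passed in any.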
